A study of Mus musculus with 8 samples.

Results

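The genes described here are the heat shock proteins and their DNAJ co-chaperones, taken as every protein-coding gene whose symbol begins with Hspa, Hspb, Hspd, Hspe, Hsph, Hsp90, Dnaja, Dnajb or Dnajc (with a number for all but Hsp90). The rule found 72 of the 49585 gene identifiers listed in each library. They fall into 11 HSP70 genes, 3 genes of the HSP110 branch, 3 HSP90 genes, the mitochondrial pair Hspd1 and Hspe1, 8 small heat shock proteins, 4 DNAJA, 13 DNAJB and 28 DNAJC genes. A further 12 rows matched by symbol but are annotated as processed pseudogenes and were left out.

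RNA was measured in the dorsal horn of lumbar segments 4 to 6 of the spinal cord, the region where touch and pain fibres end, in adult C57BL/6J mice. There were 4 libraries from miR-96 knock-out mice and 4 from wild-type mice, and the design text names 4 mice of each genotype. The labels do not say how the miR-96 gene was deleted, in which cells, or of which sex the mice were. They also do not tie each library to a mouse, so p-values below measure the spread between libraries, which may in part be technical. Levels are FPKM, the fragments of a gene scaled by transcript length and by the mapped fragments of the library, which can be compared between genes because of the scaling by length.

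Heat shock proteins are molecular chaperones: they bind unfolded proteins and help them to fold, move through membranes or be degraded. HSP70 proteins do so in a cycle driven by ATP, in which a DNAJ protein (also called HSP40 or J protein) delivers the client and starts hydrolysis, and a nucleotide exchange factor such as an HSP110 protein resets the cycle. HSP90 takes over late folding steps of kinases and steroid receptors, and small heat shock proteins hold unfolded proteins without ATP. Some of these genes are on in every cell, and others are switched on by heat and proteotoxic stress through heat shock factors, which bind repeated GAA and TTC units. Neurons depend on them for synaptic vesicle recycling and for keeping aggregation-prone proteins soluble.

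Markers of dorsal horn neurons were found in every library. All 8 markers of excitatory and all 8 of inhibitory dorsal horn neurons were above 0 in all 8 libraries. Being above 0 does not establish the tissue, since all 6 motor neuron and all 5 red blood cell markers were so too. The glutamate transporter gene Slc17a6 lay between 96.7 and 136 FPKM. Mir96 itself was at 0 in all 8 libraries, which says nothing of the genotype, since mature miRNAs are not captured by libraries of this kind. Estimated depth was 31500000 to 42450000 fragments per library. Other tissue and cell markers differed between libraries: the 5 red blood cell markers summed to 17.8 to 39.3 FPKM in knock-out and to 5.96 to 199 in wild type, with 199 in wild type replicate 1, and the 6 motor neuron markers to 16.7 to 75.9 in knock-out (75.9 in replicate 1) and 14.5 to 62.8 in wild type. The 5 liver markers summed to at least 24.5 FPKM in each knock-out library and at most 10.8 in each wild-type library, and all 5 had a higher mean in knock-out. In bulk tissue, fewer cells of a type and less RNA per cell cannot be told apart.

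Promoters show which of these genes carry the letters that heat shock factors and ER stress factors read, and are printed for 5 genes whose values are described below. They come from RefSeq on GRCm38.p6, run from 250 bases before to 50 bases after an annotated start, and were found for 58 of the 72 genes. In the first 3, capitals mark GAANNTTC or TTCNNGAA, a pair of opposed heat shock units spaced by 2 bases. Each of these motifs reads the same on both strands, and overlapping matches are joined. Hspd1 has a further annotated start, whose window (chr1:55088194-55088493) holds neither motif and is not printed.
Hspa1b (stress-inducible HSP70), chr17:34959189-34959488, minus strand: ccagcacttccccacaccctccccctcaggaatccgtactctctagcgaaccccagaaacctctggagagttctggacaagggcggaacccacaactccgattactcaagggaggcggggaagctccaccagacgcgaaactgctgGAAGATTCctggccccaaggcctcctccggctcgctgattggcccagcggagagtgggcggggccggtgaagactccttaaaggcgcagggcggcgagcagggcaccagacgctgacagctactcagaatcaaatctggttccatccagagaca
Hsph1 (HSP110), chr5:149636287-149636586, minus strand: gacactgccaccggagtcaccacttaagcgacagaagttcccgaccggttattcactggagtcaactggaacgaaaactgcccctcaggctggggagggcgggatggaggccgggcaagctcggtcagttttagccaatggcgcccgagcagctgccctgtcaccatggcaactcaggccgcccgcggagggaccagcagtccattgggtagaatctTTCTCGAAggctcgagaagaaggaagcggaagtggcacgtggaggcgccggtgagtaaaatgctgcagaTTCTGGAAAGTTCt
Hspd1 (mitochondrial HSP60), chr1:55087883-55088182, minus strand: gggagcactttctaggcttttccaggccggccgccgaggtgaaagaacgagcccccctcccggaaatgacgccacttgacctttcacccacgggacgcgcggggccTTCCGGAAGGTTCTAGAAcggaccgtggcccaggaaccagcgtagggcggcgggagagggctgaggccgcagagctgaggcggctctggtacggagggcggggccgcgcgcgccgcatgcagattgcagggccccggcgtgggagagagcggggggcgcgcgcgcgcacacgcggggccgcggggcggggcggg
In the other 2, capitals mark the ER stress element, CCAAT followed after 9 bases by CCACG, searched on both strands.
Hspa5 (the ER HSP70, BiP), chr2:34771840-34772139, plus strand: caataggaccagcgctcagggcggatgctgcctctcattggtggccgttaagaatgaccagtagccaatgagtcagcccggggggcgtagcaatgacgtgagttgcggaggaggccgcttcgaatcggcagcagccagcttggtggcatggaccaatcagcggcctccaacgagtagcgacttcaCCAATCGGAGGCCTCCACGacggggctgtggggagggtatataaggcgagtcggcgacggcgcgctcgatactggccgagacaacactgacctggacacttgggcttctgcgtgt
Dnajc3 (an ER J protein), chr14:118937682-118937981, plus strand: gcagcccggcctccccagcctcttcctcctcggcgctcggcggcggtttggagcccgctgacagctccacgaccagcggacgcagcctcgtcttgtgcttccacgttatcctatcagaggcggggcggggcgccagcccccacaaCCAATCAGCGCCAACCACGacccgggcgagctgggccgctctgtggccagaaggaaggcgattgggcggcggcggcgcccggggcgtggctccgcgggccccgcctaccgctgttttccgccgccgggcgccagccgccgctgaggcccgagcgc

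The paired heat shock motif was in the promoters of 16 of the 58 genes, against 17.0% of all 27025 genes with a promoter and 15.1% of all promoters of this length. Among the 9 matched genes of a list of 11 heat-inducible chaperones it was in 7, namely Dnaja1, Hspa1a, Hspa1b, Hspb1, Hspd1, Hspe1 and Hsph1. Runs of 3 alternating units, as in Hsph1 and Hspd1, were in 4 of the 58 genes (also Hspe1 and Dnajb6) against 0.662% of all genes. Hspd1 and Hspe1 have overlapping starts on opposite strands, so the same stretch of letters can count for both, here and among the 7. The ER stress element was in 3 of the 58 genes, Hspa5, Dnajc3 and the ER HSP90 gene Hsp90b1, against 0.137% of all genes. The windows of Hspa1a and Hspa1b differ at 4 of 300 bases. A match is a description of the letters and not a measured binding site.

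Chaperone transcripts were abundant, and a few genes made up most of them. Hsp90ab1, the constitutive cytosolic HSP90, averaged 1782 FPKM over the 8 libraries and ranked 18 among 15061 genes. Hspa8, the constitutive HSP70 that also uncoats clathrin vesicles, averaged 1346 FPKM (rank 24), and Hsp90aa1, the inducible HSP90, averaged 936 FPKM (rank 43). These 3 genes held 56.1% of the summed FPKM of all 72. Together the 72 genes were 1.21% to 1.38% of the FPKM of a knock-out library and 0.874% to 1.36% of that of a wild-type library, lowest in wild type replicate 1. In all, 16 genes were at 100 FPKM or more, 37 at 10 to under 100, and 8 at 1 to under 10.

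**Figure D1:**
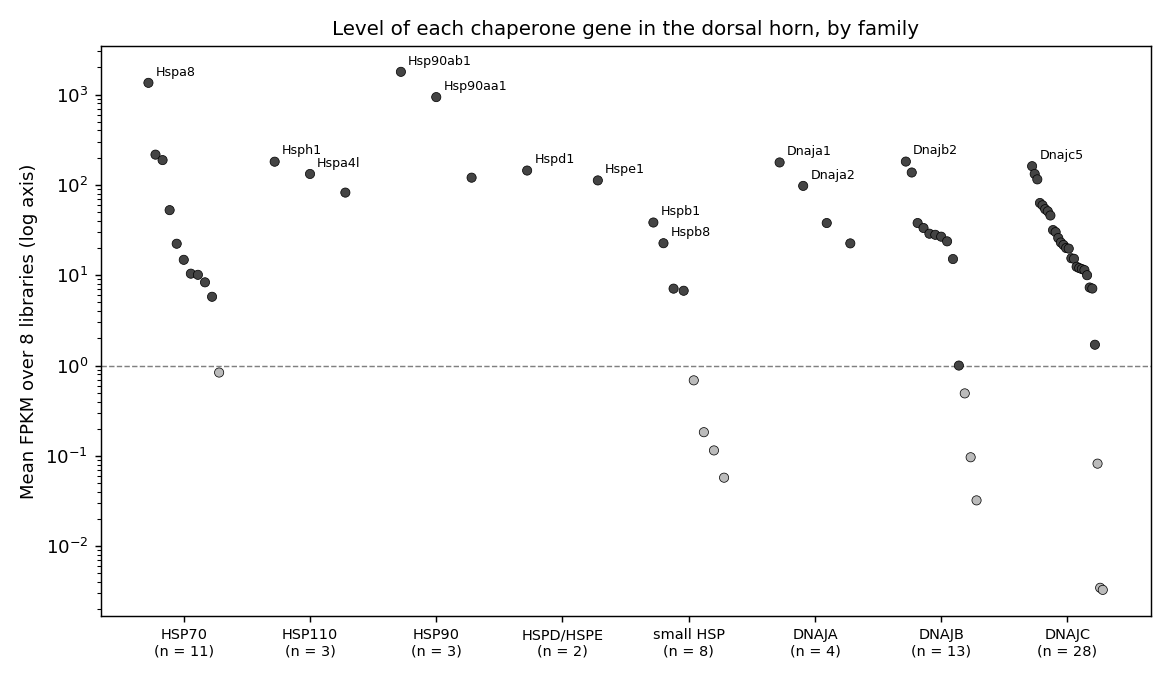
Mean FPKM over the 8 libraries of each of the 72 chaperone genes (points, log axis), by family; grey points lie under the mean of 1 FPKM (dashed line) needed for testing. Hsp90ab1, Hspa8 and Hsp90aa1 stand above the rest at 936 to 1782 FPKM. Among the 72 genes, the small heat shock proteins are the family with the lowest top level, 38.3 FPKM for Hspb1. Cryab, a small heat shock protein by sequence under another symbol, is not shown. It averaged 277 FPKM in knock-out and 290.2 in wild type.

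Genes with a mean of at least 1 FPKM were tested, 61 of the 72. The other 11 averaged under 1 FPKM: Hspa1l was at 0.837 FPKM, Hspb2 0.686, Dnajb13 0.492, Hspb9 0.183, Hspb7 0.115, Dnajb8 0.0966, Dnajc22 0.0821, Hspb3 0.0574 and Dnajb7 0.0322. Dnajc5b and Dnajc5g, relatives of the synaptic Dnajc5, were above 0 in 1 library each. Of the pseudogenes, Hspd1-ps3 reached 4.15 FPKM and Dnajc19-ps 3.67 FPKM, and the other 10 stayed under 0.75 FPKM.

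None of the 61 genes differed between knock-out and wild type at an adjusted p under 0.05 in limma's test on log2(FPKM + 1), adjusted over all 15061 genes tested. No gene of the series did so either (0%), and 831 had an unadjusted p under 0.05. The lowest adjusted p was 0.620 among the 61 chaperone genes and 0.159 over all genes. At an unadjusted p under 0.05, 3 of the 61 were higher in knock-out, the HSP110 gene Hspa4l and the ER-linked J protein genes Dnajc3 and Dnajb14, where 3.69% of all genes were. With 1 library left out, that count of 3 was 0 (leaving out knock-out replicate 1, 2 or 4 or wild type replicate 1), 1 (wild type replicate 2 or 3), 4 (knock-out replicate 3) or 13 (wild type replicate 4). The 831 of all 15061 genes, counted in either direction, moved the same way. They became 1438 in the fit that gave 4 and 3151 in the fit that gave 13. In the fits that gave 0 or 1 they were 325 to 711. With all 8 libraries, 0 of the 61 were lower at the same limit, where 1.83% of all genes were. No chaperone gene had all 4 knock-out libraries above all 4 wild-type libraries (1.91% of all genes), and 1, Dnajc17, had all 4 below (1.12% of all genes). By sign alone, 38 of the 61 (62.3%) had a higher fitted mean in knock-out and 23 a lower one. The median log2 fold change, knock-out minus wild type, was 0.02, against 0.01 over all genes, of which 53.1% were higher. The shares past the unadjusted limit and of genotypes that do not overlap lie near those of all genes.

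**Figure D2:**
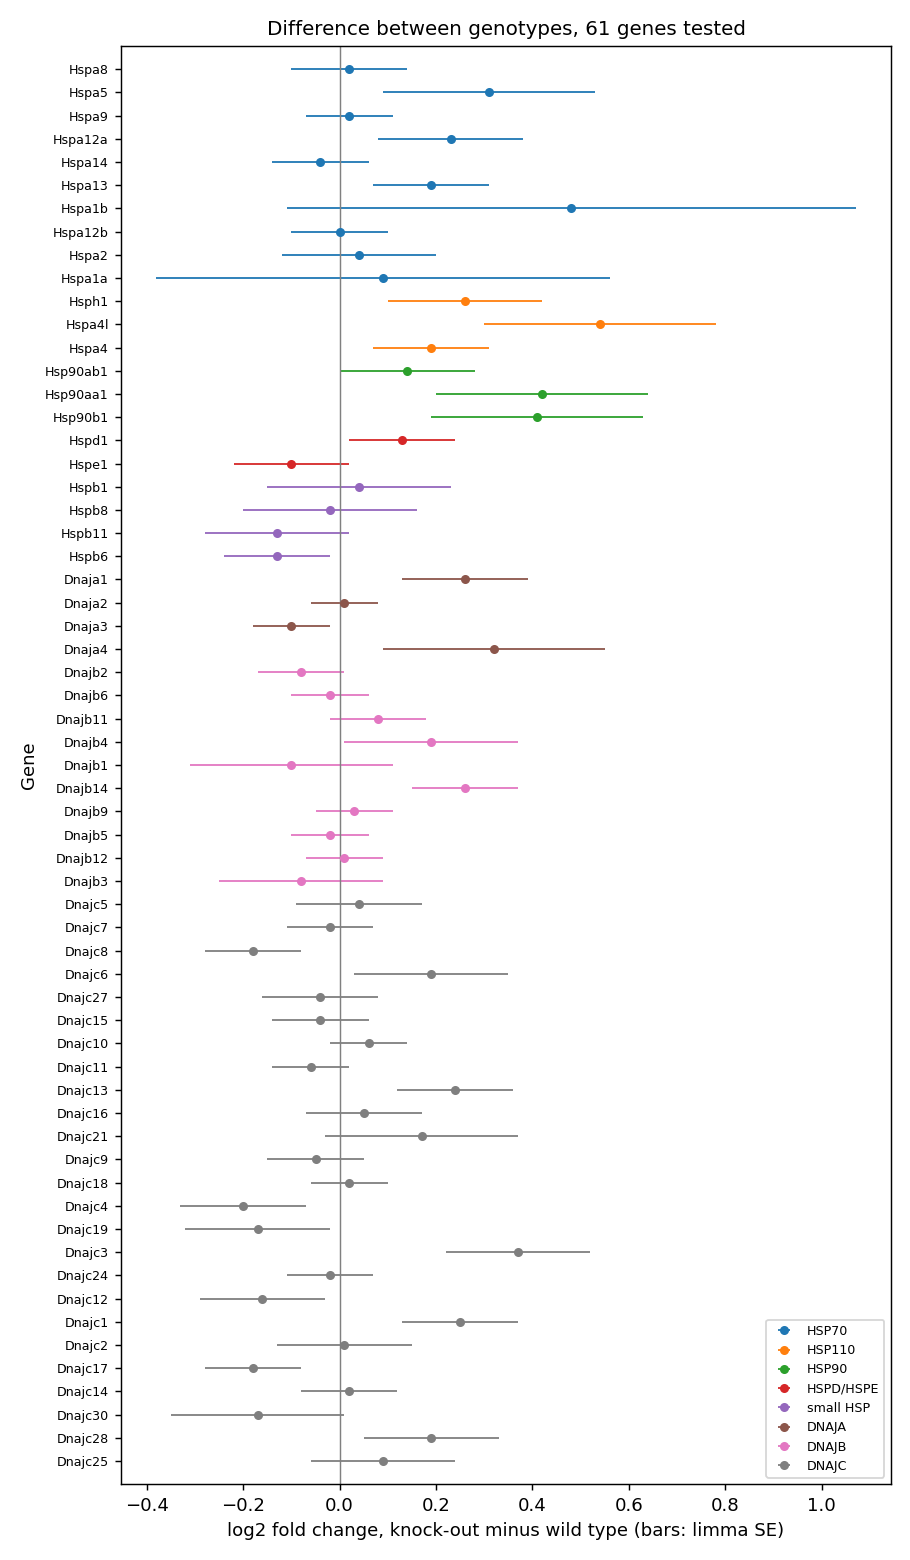
Log2 fold change of log2(FPKM + 1), knock-out minus wild type, for the 61 genes tested, with limma standard errors as bars and colours for families. The HSP110 and HSP90 genes lie right of 0, Hspa1a and Hspa1b have the widest errors (0.47 and 0.59), and most DNAJC genes lie within 0.2 of 0.

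Estimating a weight for each library in the same fit gave another count. Wild type replicate 1 then had the lowest weight (0.153) and wild type replicate 3 the highest (5.09). Wild type replicates 2 and 4 had 0.988 and 0.423, so the wild-type mean rested mostly on replicate 3. Over all genes, 6.72% were called higher in knock-out and 4.08% lower. Of the 61 genes, 5 passed the adjusted threshold in limma, all higher in knock-out. They were Hspa4l (log2 fold change 0.67), Hsp90aa1 (0.52), Hsp90b1 (0.45), Dnajc3 (0.40) and Dnajb14 (0.23), with adjusted p-values of 0.0389 to 0.0474. For all 5, wild type replicate 4 was the highest wild-type library and knock-out replicate 3 (weight 0.696) the lowest knock-out. A share of 5 in 61 lies near the 6.72% of all genes.

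Among the HSP70 genes, the levels of Hspa8 and Hspa9 differed little between genotypes. Hspa8 had 1365, 1293, 1449 and 1299 FPKM in knock-out replicates 1 to 4, against 1068, 1428, 1486 and 1384 in wild type replicates 1 to 4. The lowest of the 8 was wild type replicate 1, the groups overlapped, and the log2 fold change was 0.02 (SE 0.12). Hspa9, the mitochondrial HSP70 mortalin, averaged 189 ± 7.58 FPKM in knock-out and 187 ± 16.9 in wild type (SD, n = 4 each). Hspa5, the ER HSP70 whose promoter carries the ER element printed above, had 250.4, 222, 247 and 217 FPKM in knock-out and 117, 185, 209 and 280.0 in wild type. Its knock-out libraries lay inside the wild-type range, with a log2 fold change of 0.31 (SE 0.22), and 0.08 without wild type replicate 1. The HSP70 genes as a family had 9 of 10 tested members above their wild-type mean in knock-out, and their median was 0.07. Without knock-out replicate 1 the count was 5 of 10, without wild type replicate 1 it was 6 of 10, and with estimated library weights 4 of 10.

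Hspa1a and Hspa1b, the stress-inducible HSP70 pair that is low in unstressed tissue, varied most of all tested chaperone genes. Hspa1b had 32.0, 4.98, 7.39 and 6.77 FPKM in knock-out, against 4.73, 2.34, 14.0 and 10.8 in wild type. Hspa1a had 15.7, 2.79, 4.16 and 3.07 FPKM in knock-out, against 4.94, 2.22, 8.65 and 4.58 in wild type. For both genes knock-out replicate 1 was the highest library, wild type replicate 3 came next and wild type replicate 2 was the lowest, so the spread within each genotype exceeded the difference between them. Their coding sequences (chromosome 17, neighbouring genes) are 99.4% identical, so the split of fragments between them is uncertain. Summed over both genes, the level was 47.7, 7.77, 11.5 and 9.84 FPKM in knock-out and 9.67, 4.56, 22.6 and 15.4 in wild type. The log2 fold changes were 0.48 (SE 0.59) for Hspa1b and 0.09 (SE 0.47) for Hspa1a. Without knock-out replicate 1 they were -0.06 and -0.40.

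The remaining HSP70 relatives were steadier. Hspa12a and Hspa12b, distant relatives of HSP70, averaged 56.4 ± 2.93 and 10.1 ± 0.311 FPKM in knock-out and 48.7 ± 10.5 and 10.1 ± 1.14 in wild type (SD, n = 4 each). Hspa13, a small HSP70 of microsomes, averaged 15.8 ± 0.941 FPKM in knock-out and 13.9 ± 2.60 in wild type. Hspa14, bound to ribosomes, averaged 22.0 ± 2.23 and 22.6 ± 1.54. Hspa2, best known from sperm development, averaged 8.45 ± 1.17 FPKM in knock-out and 8.24 ± 1.70 in wild type.

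The 3 HSP110 genes, which exchange nucleotides on HSP70 and hold unfolded clients, all had a higher mean in knock-out. Hspa4l had 182, 173, 106 and 162 FPKM in knock-out, against 77.9, 92.1, 101 and 164 in wild type. Knock-out replicate 3 sat just above the 3 low wild-type libraries, and wild type replicate 4 sat among the other knock-out libraries. The log2 fold change was 0.54 (SE 0.24, limma unadjusted p = 0.0461, adjusted p = 0.620), the largest of the 61 genes, and ran from 0.40 without wild type replicate 1 to 0.76 without wild type replicate 4. Hsph1 had 231, 185, 181 and 185 FPKM in knock-out and 119.6, 159, 178 and 205 in wild type. Knock-out replicate 1 was its highest library and wild type replicate 1 its lowest, and the log2 fold change was 0.26 (SE 0.16). It was 0.12 without wild type replicate 1 and 0.03 without replicate 1 of both genotypes. Hspa4 averaged 87.2 ± 4.98 FPKM in knock-out and 77.0 ± 12.4 in wild type (SD, n = 4 each).

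The 3 HSP90 genes also had a higher mean in knock-out, and all of them overlapped between genotypes. Hsp90aa1 had 1149, 1068, 762 and 1278 FPKM in knock-out, against 681, 599.9, 765 and 1182 in wild type. As for Hspa4l, knock-out replicate 3 lay at the level of the 3 low wild-type libraries and wild type replicate 4 at that of the other knock-out libraries, with a log2 fold change of 0.42 (SE 0.22) that ran from 0.30 to 0.62 when 1 library was left out. Hsp90b1, the ER HSP90 also called GRP94, had 139.7, 133, 111 and 155 FPKM in knock-out and 75.9, 82.1, 99.9 and 164 in wild type, a log2 fold change of 0.41 (SE 0.22). All 4 knock-out libraries lay above 3 of the 4 wild-type libraries and below wild type replicate 4. Hsp90ab1 had 1949, 1781, 1824 and 1873 FPKM in knock-out, against 1272, 1775, 1845 and 1935 in wild type. For this most abundant chaperone wild type replicate 1 alone stood apart, and without it the log2 fold change of 0.14 (SE 0.14) was 0.00. The 3 HSP90 genes together summed to 3056 ± 277 FPKM in knock-out and 2619.5 ± 523 in wild type (SD, n = 4 each).

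Hspd1 and Hspe1 encode the mitochondrial chaperonin HSP60 and its lid HSP10, and are transcribed in opposite directions from overlapping starts on chromosome 1. Hspd1 had 170.2, 145, 142 and 146 FPKM in knock-out, against 121, 127, 147 and 156 in wild type, and Hspe1 had 108, 95.2, 107 and 121 FPKM in knock-out, against 141, 114, 106 and 104 in wild type. The library of wild type replicate 1 was the lowest for Hspd1 and the highest for Hspe1. The log2 fold change of Hspd1 was 0.13 (SE 0.11), and 0.08 without either knock-out replicate 1 or wild type replicate 1. That of Hspe1 was -0.10 (SE 0.12), with -0.01 without wild type replicate 1 and -0.16 without knock-out replicate 4. Whether strand was used in counting is not given in the sources used here, so fragments from the overlap may be assigned to either gene.

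Of the 8 small heat shock protein genes 4 were tested, 3 of them with a lower mean in knock-out. Hspb1, which encodes HSP27 and is found in motor and sensory neurons as well as glia, had 57.2, 39.4, 30.7 and 30.0 FPKM in knock-out, against 32.8, 34.7, 41.4 and 39.8 in wild type. Both the highest and the lowest library were knock-outs, and the log2 fold change was 0.04 (SE 0.19). The motor neuron markers were also highest in knock-out replicate 1, and next highest in wild type replicate 2, where Hspb1 was at 34.7 FPKM. Their part in Hspb1 was not tested. Hspb8, the partner of BAG3 in selective autophagy, averaged 22.4 ± 4.76 FPKM in knock-out and 22.9 ± 4.85 in wild type (SD, n = 4 each). Hspb6 averaged 6.36 ± 0.373 and 7.11 ± 0.993 FPKM, and Hspb11, better known as the intraflagellar transport gene Ift25, 6.66 ± 0.304 and 7.53 ± 2.07 FPKM. The crystallin gene Cryab, a small heat shock protein by sequence under another symbol, was more abundant than any of them, at 277 ± 18.5 FPKM in knock-out and 290.2 ± 49.9 in wild type.

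The 4 DNAJA genes encode the J proteins nearest to the bacterial DnaJ. Dnaja1 had 216, 183, 173 and 199 FPKM in knock-out, against 143, 138, 171 and 198 in wild type, with a log2 fold change of 0.26 (SE 0.13). Knock-out replicate 1 was highest and wild type replicates 1 and 2 were lowest. Dnaja2 was the steadiest of the 61 genes, with 93.9 to 101 FPKM over all 8 libraries. Dnaja4 had 27.4, 22.9, 22.9 and 25.2 FPKM in knock-out and 10.6, 23.4, 24.4 and 23.0 in wild type. Its log2 fold change of 0.32 (SE 0.23) rested on wild type replicate 1 and was 0.05 without it. Dnaja3, the mitochondrial J protein Tid1, averaged 36.5 ± 2.39 FPKM in knock-out and 39.2 ± 1.63 in wild type (SD, n = 4 each).

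The DNAJB genes were mixed, with 5 of 10 tested members on each side of 0. Dnajb2, a neuronal J protein that binds ubiquitin and hands clients to the proteasome, was the most abundant, with 181, 167, 183 and 173 FPKM in knock-out and 199, 189, 194 and 163 in wild type. The groups overlapped through wild type replicate 4 alone, the lowest library, and the log2 fold change was -0.08 (SE 0.09). Dnajb6, which keeps polyglutamine proteins from aggregating, averaged 136 ± 9.58 FPKM in knock-out and 137 ± 0.614 in wild type (SD, n = 4 each). Dnajb1, the main heat-inducible J partner of HSP70, had 41.2, 25.0, 25.6 and 20.2 FPKM in knock-out, against 27.5, 25.3, 39.2 and 26.1 in wild type. A single library of each genotype stood above the rest, knock-out replicate 1 and wild type replicate 3, the same libraries that were highest for Hspa1a and Hspa1b, and the log2 fold change was -0.10 (SE 0.21). Dnajb4 averaged 35.3 ± 5.41 FPKM in knock-out and 31.3 ± 7.95 in wild type, and Dnajb5 23.5 ± 0.976 and 23.9 ± 1.77 FPKM. Dnajb3, the least abundant of the 61 genes, averaged 0.948 ± 0.312 FPKM in knock-out and 1.06 ± 0.333 in wild type.

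Dnajb14, a J protein of the ER membrane that acts in ER-associated degradation, had 32.8, 31.8, 27.9 and 29.8 FPKM in knock-out, against 21.0, 26.5, 26.3 and 28.4 in wild type. Of the 4 knock-out libraries, 3 lay above every wild-type library, and replicate 3 lay just below wild type replicate 4. The log2 fold change was 0.26 (SE 0.11, limma unadjusted p = 0.0368, adjusted p = 0.620), and 0.17 without wild type replicate 1. The gene overlaps 4 predicted genes, 2 of them on its own strand, so its fragments may be shared. Dnajb12, its close relative in the same membrane, averaged 15.2 ± 0.276 FPKM in knock-out and 15.1 ± 0.844 in wild type (SD, n = 4 each).

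The DNAJC group is the largest and most diverse, sharing only the J domain, and 13 of its 25 tested genes had a higher mean in knock-out (8 once a length trend was taken out of each library). Dnajc3, which encodes the ER J protein P58IPK, had 17.8, 18.7, 15.5 and 17.3 FPKM in knock-out, against 11.4, 10.7, 13.5 and 18.3 in wild type. All 4 knock-out libraries lay above wild type replicates 1 to 3, while wild type replicate 4 was among them. The log2 fold change was 0.37 (SE 0.15, limma unadjusted p = 0.0371, adjusted p = 0.620), with a range of 0.27 to 0.51 when 1 library was left out. Dnajc1, another ER membrane J protein, averaged 13.0 ± 1.02 FPKM in knock-out and 10.9 ± 1.78 in wild type (SD, n = 4 each).

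The J proteins of vesicles and endosomes include the most abundant DNAJC gene, Dnajc5. It encodes cysteine string protein, the J protein of synaptic vesicles, and had 155, 159, 174 and 159.9 FPKM in knock-out, against 117, 182, 168 and 171 in wild type. Again wild type replicate 1 was lowest, and the other 3 wild-type libraries lay above 3 of the 4 knock-outs, with a log2 fold change of 0.04 (SE 0.13), and -0.10 without that library. Dnajc6, the neuronal auxilin that recruits HSC70 to clathrin coats, averaged 66.5 ± 1.94 FPKM in knock-out and 59.5 ± 13.5 in wild type (SD, n = 4 each). Dnajc13, an endosomal J protein, averaged 34.3 ± 3.94 FPKM in knock-out and 28.9 ± 3.77 in wild type, a log2 fold change of 0.24 (SE 0.12).

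Dnajc17, a J protein linked to pre-mRNA splicing, was the one chaperone gene whose genotypes did not overlap. It had 9.13, 11.4, 10.6 and 11.4 FPKM in knock-out, against 13.7, 11.8, 11.5 and 11.6 in wild type. The gap between the groups was small: the highest knock-out and the lowest wild-type library stood at 11.4 and 11.5 FPKM. The log2 fold change was -0.18 (SE 0.10, limma unadjusted p = 0.108, adjusted p = 0.620), and -0.12 without either knock-out replicate 1 or wild type replicate 1. Genes on the opposite strand overlap it, and fragments from the overlap may be assigned to either. The other J proteins of nucleus and ribosome did not share one direction: the splicing-linked Dnajc8 averaged 108 ± 5.61 FPKM in knock-out and 122 ± 14.5 in wild type, the ribosome-bound Dnajc2 11.7 ± 1.64 and 11.6 ± 1.90, and the ribosome biogenesis gene Dnajc21 27.2 ± 5.42 and 24.4 ± 6.49 (SD, n = 4 each).

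None of the DNAJC genes not described singly here or by compartment had an unadjusted p under 0.05 in limma. Dnajc7, a J protein with TPR repeats that links HSP70 and HSP90, averaged 131 ± 3.52 FPKM in knock-out and 133 ± 14.1 in wild type (SD, n = 4 each). Dnajc12, the co-chaperone of aromatic amino acid hydroxylases, averaged 11.7 ± 1.68 FPKM in knock-out and 13.2 ± 2.05 in wild type, and Dnajc9, which also binds histones, 22.6 ± 2.48 and 23.4 ± 1.52. Dnajc4 had the lowest log2 fold change of the 61 genes, -0.20 (SE 0.13), at 18.4 ± 0.830 FPKM in knock-out and 21.6 ± 4.45 in wild type, with 27.9 FPKM in wild type replicate 1. Dnajc14, Dnajc18, Dnajc24 and Dnajc27 had log2 fold changes of -0.04 to 0.02.

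**Figure D3:**
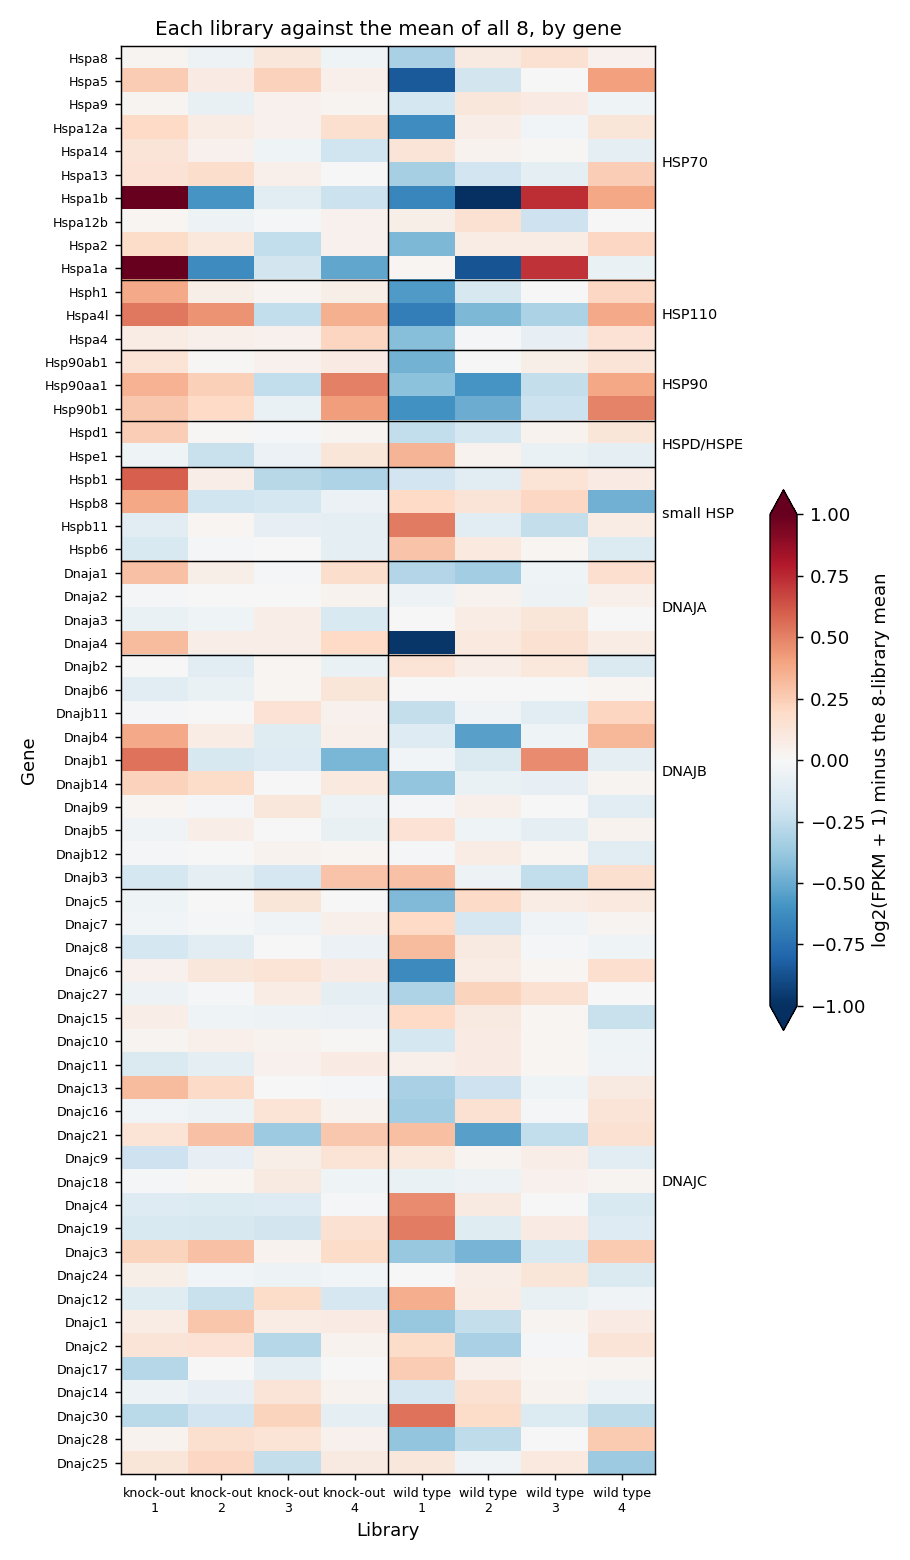
Each of the 61 tested genes (rows, by family) in each library (columns, knock-out left of the line), as log2(FPKM + 1) minus its mean over the 8 libraries; red is above and blue below that mean, with colours capped at 1 on either side. Wild type replicate 1 is blue for most HSP70, HSP110 and HSP90 genes and red for genes such as Hspe1, Hspb11, Dnajc19 and Dnajc30. Knock-out replicate 1 has the highest value of the 8 libraries for 8 of the 11 heat-inducible genes.

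Read across libraries, 2 of the 8 account for most extreme values. Wild type replicate 1 was the lowest library for 26 of the 61 genes (42.6%, against 32.0% of all genes tested) and the highest for 17 (27.9%, against 30.0%). The genes it was lowest for had a median longest transcript of 4233 nt, and those it was highest for 1980 nt. In that library FPKM, relative to the mean of the 8, fell with transcript length by 0.10 log2 units per doubling over all genes, whereas the slopes of the other 7 lay between -0.0148 and 0.0424. Knock-out replicate 1 was the highest library for 15 of the 61 genes (24.6%, against 14.8% of all genes).

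The heat-inducible list holds Hspa1a, Hspa1b, Hspa8, Hspa4l, Hsph1, Hsp90aa1, Hspb1, Hspd1, Hspe1, Dnaja1 and Dnajb1. Of these 11 genes, 9 had a higher mean in knock-out, where 53.1% of all genes did. Their median log2 fold change was 0.13, against 0.01 over all genes. At an unadjusted p under 0.05, 1 of the 11, Hspa4l, was higher, where 3.69% of all genes were. Knock-out replicate 1 was the highest of the 8 libraries for 8 of the 11, and for 14.8% of all genes tested. The median deviation of the list from the 8-library mean was 0.38 log2 units in knock-out replicate 1 and 0.01, -0.10 and 0.03 in knock-out replicates 2 to 4, and -0.29, -0.18, 0.03 and 0.12 in wild type replicates 1 to 4. Without knock-out replicate 1, 6 of the 11 had a higher mean in knock-out and the median was 0.01, and without wild type replicate 4 it was 9 of the 11 with a median of 0.20. With estimated library weights 5 of the 11 were higher and the median was -0.01. Bag3, a co-chaperone gene that is induced with HSP70, was also highest in knock-out replicate 1, at 19.5 FPKM, against 9.79 to 13.6 in the other knock-outs and 11.1 to 15.9 in wild type. Partner genes were mixed in that library. The median deviation was 0.04 log2 units for the list of Bag3, HSP70 exchange factors and modulators, and 0.01 for HSP90 co-chaperones. Among the latter, Chordc1 (106 FPKM) and Ahsa2 (22.4) were highest there, and Stip1 (149.5), Ahsa1 (79.8) and Fkbp4 (166) were not.

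**Figure D4:**
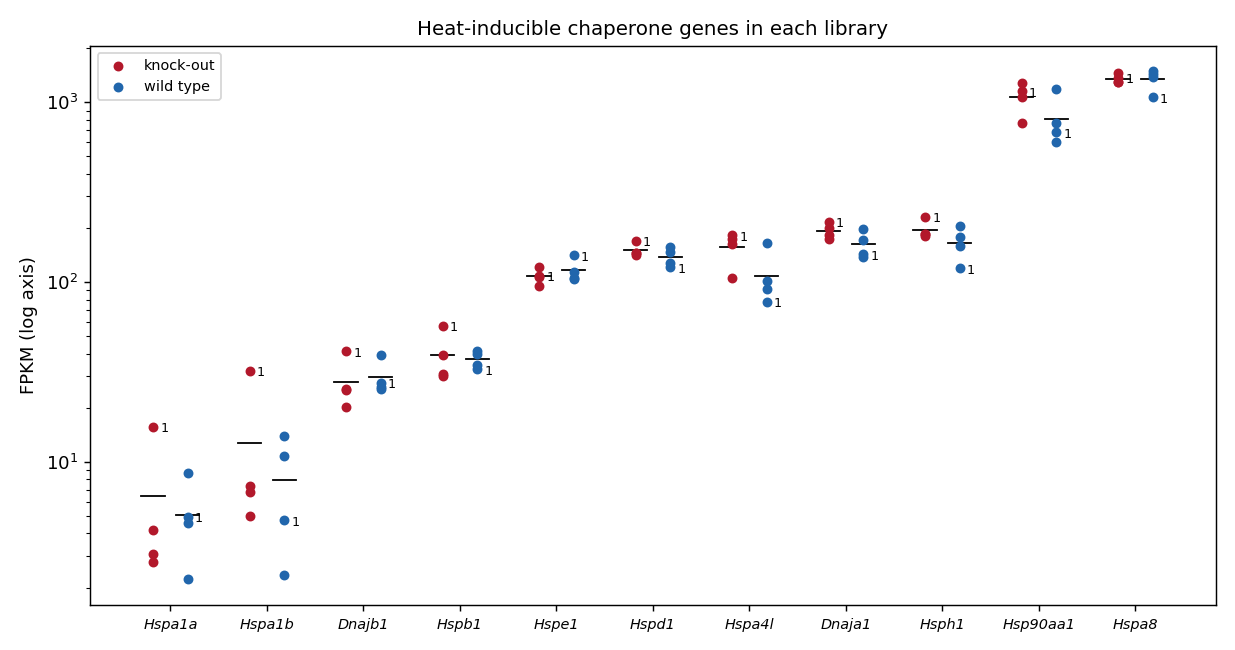
FPKM (log axis) of the 11 heat-inducible chaperone genes in each library, knock-out in red left of wild type in blue; black lines are group means and the digit 1 marks replicate 1 of each genotype. Knock-out replicate 1 is the top point for 8 genes, with 15.7 FPKM for Hspa1a and 32.0 for Hspa1b, and the groups overlap for all 11.

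By compartment, chaperones and J proteins of the ER lay on one side. All 12 tested had a higher mean in knock-out, where 53.1% of all genes did, with a median log2 fold change of 0.14 against 0.01 over all genes. Of the 12, 2 were higher at an unadjusted p under 0.05, Dnajc3 and Dnajb14, where 3.69% of all genes were. The J protein genes Dnajb9 and Dnajb11, which serve BiP in the ER lumen, averaged 27.0 ± 1.39 and 38.8 ± 2.12 FPKM in knock-out and 26.3 ± 1.25 and 36.8 ± 5.18 in wild type (SD, n = 4 each). Dnajc10, a disulfide reductase of the ER, averaged 52.0 ± 0.684 FPKM in knock-out and 49.9 ± 3.87 in wild type, and Dnajc16 and Dnajc25 had log2 fold changes of 0.05 and 0.09. For 8 of the 12 the lowest library was wild type replicate 1. Without it 11 of the 12 were higher and the median was 0.09, without wild type replicate 4 it was 10 of 12 with a median of 0.23, and after a length trend was taken out of each library 10 of the 12 were higher. With estimated library weights 9 of the 12 were higher. Of 12 further genes of the ER stress response 9 had a higher mean in knock-out (median 0.15) and 0 had an unadjusted p under 0.05, and without wild type replicate 1 the count was 8 of 12 (median 0.02). Sdf2l1, which binds ER J proteins, averaged 22.4 ± 2.89 FPKM in knock-out and 17.6 ± 6.39 in wild type, while the stress transcription factor gene Atf4 averaged 54.2 ± 4.88 and 63.5 ± 12.3 (SD, n = 4 each).

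Mitochondrial chaperones and J proteins lay the other way by count. Of 9 tested, 3 had a higher and 6 a lower mean in knock-out, with a median log2 fold change of -0.06 and 0 at an unadjusted p under 0.05. The median was -0.01 without wild type replicate 1 and -0.12 without wild type replicate 4, with 3 higher and 6 lower in both cases. Dnajc19 and Dnajc15, J proteins of the inner membrane import motor, averaged 18.4 ± 2.22 and 52.9 ± 2.28 FPKM in knock-out and 21.0 ± 4.87 and 54.7 ± 6.73 in wild type (SD, n = 4 each). Dnajc30 averaged 6.77 ± 1.24 FPKM in knock-out and 7.85 ± 2.27 in wild type. Dnajc11, of the inner membrane organizing machinery, averaged 44.9 ± 3.37 and 46.8 ± 1.71 FPKM, and Dnajc28 7.59 ± 0.375 and 6.64 ± 1.57 FPKM. For 4 of the 9 the highest library was wild type replicate 1.

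The genes that work with these chaperones were also near the level of no difference. Of 65 partner genes tested in 6 lists, 29 had a higher and 36 a lower mean in knock-out, the median log2 fold change was -0.03, and 0 passed limma's adjusted threshold. At an unadjusted p under 0.05, 0 were higher, where 3.69% of all genes were, and 1 was lower, where 1.83% of all genes were, a share near that of all genes. The gene at that limit was Hspbp1, a nucleotide exchange factor of HSP70, with 79.3, 80.2, 84.6 and 70.3 FPKM in knock-out, against 113, 95.7, 87.4 and 83.4 in wild type. Only knock-out replicate 3 overlapped the wild-type range, above wild type replicate 4, and the log2 fold change was -0.26 (SE 0.11, limma unadjusted p = 0.0380, adjusted p = 0.620).

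Among the regulators, the heat shock factor gene Hsf1 averaged 24.9 ± 1.46 FPKM in knock-out and 24.6 ± 3.29 in wild type (SD, n = 4 each), and 1 of the 5 tested genes of its list had a higher mean in knock-out. Of 16 HSP90 co-chaperones, 7 were higher, and 9 with quantile normalization. Chordc1, a zinc-binding HSP90 partner, had 106, 87.4, 70.2 and 86.1 FPKM in knock-out and 59.0, 50.8, 71.0 and 103 in wild type. As for Hsp90aa1, knock-out replicate 3 was the lowest knock-out and wild type replicate 4 the highest wild-type library, and the log2 fold change was 0.33 (SE 0.20). The kinase co-chaperone gene Cdc37 averaged 41.0 ± 2.49 FPKM in knock-out and 46.9 ± 3.93 in wild type.

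Of 14 genes of the cytosolic chaperonin CCT and its partner prefoldin, 3 had a higher and 11 a lower mean in knock-out, with a median log2 fold change of -0.10. The prefoldin subunit gene Pfdn5 averaged 147 ± 21.0 FPKM in knock-out and 193 ± 73.4 in wild type (SD, n = 4 each), with 299 FPKM in wild type replicate 1. Of 12 nucleotide exchange factors and HSP70 modulators 5 were higher, and of 6 tested chaperones of these families under other symbols 4 were.

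Matches to the miR-96 seed were counted because loss of a miRNA can release transcripts that carry its sites. The mature sequence is given with its seed (bases 2 to 8) in capitals, from RefSeq, and the sites with the matching bases in capitals, from the annotated 3′ UTRs.
mmu-miR-96-5p, chr6:30169506-30169528, minus strand: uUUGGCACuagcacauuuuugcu
Dnajc3, site of 8 bases: gcaaattttgGTGCCAAAggcatatgcc
Dnajc1, site of 8 bases: ggagagtgtgGTGCCAAAaatatgaggt
Hspa4l, site of 7 bases: cttacagtacTGCCAAAtctttgttaag
A site (GTGCCAA or TGCCAAA) was found in the longest 3′ UTR of 14 of the 61 genes (23.0%), against 22.2% of 13074 tested protein-coding genes. The 14 had a median log2 fold change of 0.02 and the other 47 one of 0.02, equal to 2 decimals. Of the 14, 8 had a higher mean in knock-out, and of the 47, 30 did. The 14 ran from -0.17 to 0.54. Over all tested protein-coding genes the medians were 0.06 with and -0.01 without a site. The fall of FPKM with transcript length in wild type replicate 1, given above, was not taken out. Its part in these medians was not tested. Dnajc3 and Dnajc1, the only chaperone genes with a site of 8 bases, had log2 fold changes of 0.37 (SE 0.15) and 0.25 (SE 0.12), and Hspa4l had 0.54 (SE 0.24). Hspa4l, printed although its site has 7 bases, had the largest log2 fold change of the 61 genes. The shared direction of the printed genes therefore follows in part from that choice and is no result about sites. Dnajc19 and Dnajc30, each at -0.17, and Dnajc12, at -0.16, carry a site of 7 bases. Dnajb14, the third gene at an unadjusted p under 0.05, has no site in its longest 3′ UTR.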

How the data were processed

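PolyA RNA-seq libraries were made from lumbar dorsal horn, 4 from miR-96 knock-out and 4 from wild-type mice, with a NEBNext Ultra kit per the labels' protocols. The authors deposited FPKM per gene, without counts. The tools HISAT2, SAMtools and Cufflinks and the build mm8 are named in the submitters' processing notes; their settings and any use of strand were not given in the sources used here. Deposited loci equalled GENCODE M21 on GRCm38 for 91.5% of genes with a symbol, including 60 of the 72 chaperone genes, so coordinates are GRCm38, numbered from 1. Depth was estimated from the steps of 1 fragment in low FPKM values, with an assumed fragment length of 200 nt, and is approximate; 98.1% to 99.4% of those values came within 0.15 of a whole fragment, against 30% by chance. No library pair held identical values.

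Knock-out was compared with wild type on log2(FPKM + 1) with limma 3.58.1 under R 4.3.3, by a two-sided moderated test (trend and robust settings of eBayes), for the 15061 genes that averaged 1 FPKM or more, with Benjamini-Hochberg adjustment over all of them and a threshold of 0.05. Fold changes on this scale understate those of low genes. The fit was tested on simulated data. Alternatives were a pseudocount of 0.1, no filter, a mean of at least 5 FPKM, median-ratio and quantile normalization, limma without those settings, estimated library weights, replicate number as a block, removal of the length trend of each library, and leaving out each library in turn. Leaving out replicate 1 of both genotypes together was added after the data were seen.

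The chaperone genes, the lists and the naming rule were chosen with earlier results of these data known. That rule takes genes past either p limit, the heat-inducible list, the most abundant gene of each family, genes whose genotypes do not overlap and the most variable genes. Other genes given with values, Hsp90b1 among them, were chosen after their values were seen. Promoters and miRNAs came from RefSeq, and 3′ UTRs from GENCODE M21 (longest per gene). A partner gene is not reported here by itself.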

Additional observations from a re-analysis of the deposited data

Results flagged for a closer look

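Within each genotype, a library was singled out where its gap to the nearest of the other 3 was a larger share of the whole range than Dixon's 95% limit for 4 values. Of 54 groups checked 8 did so. Chance gives about 1 in 20 for genes chosen without regard to their values, but some of these genes were named for their spread or for the lack of overlap between genotypes (Hspa1a, Hspa1b, Dnaja4 and Dnajc17 among those below), so that rate is no measure for them.

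Knock-out replicate 1 stood apart for 4 heat-inducible genes. Hspa1a was at 15.7 FPKM there, against 2.79 to 4.16 in knock-out replicates 2 to 4, and Hspa1b at 32.0, against 4.98 to 7.39. Hsph1 was at 231 FPKM, against 181 to 185, and Hspd1 at 170.2, against 142 to 146. The same library had the highest motor neuron marker sum (75.9 FPKM). The next highest sum was in wild type replicate 2 (62.8 FPKM), the lowest library for Hspa1a (2.22) and Hspa1b (2.34). Hsph1 was at 159 FPKM there and Hspd1 at 127. The part of motor neurons in these values was not tested.

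Wild type replicate 1 stood apart for 2 genes and 1 family. Dnaja4 was at 10.6 FPKM, against 23.0 to 24.4 in wild type replicates 2 to 4, Dnajc17 at 13.7, against 11.5 to 11.8, and the summed HSP70 genes at 1447, against 1931 to 2022. Wild type replicate 3 stood apart for Dnajb1, at 39.2 FPKM, against 25.3 to 27.5.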

How the results depend on the processing

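The count of 0 chaperone genes past the adjusted threshold held under every alternative run except estimated library weights. Those gave 5, together with 3 partner genes, where 1627 of all 15061 genes passed. The count of 3 chaperone genes higher in knock-out at an unadjusted p under 0.05 was 10 with weights, 1 with the length trend removed and 0 without replicate 1 of both genotypes, and ran from 0 to 13 when 1 library was left out, 13 without wild type replicate 4. The count of chaperone genes lower was 3 with weights and ran from 0 to 1 over the libraries left out. Over all 15061 genes, in either direction, 831 were past that limit in the main fit. That number was 5014 with weights, 1017 with the length trend removed and 338 without replicate 1 of both genotypes. It ran from 325 without knock-out replicate 1 to 3151 without wild type replicate 4. The median log2 fold change ran from 0.007 to 0.046 over the libraries left out and was -0.020 with the length trend removed, which moved the median of all genes to -0.02 as well and left 28 of 61 chaperone genes higher.

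Some named genes changed sign under some settings, Hspa1b (0.48) among them. With estimated weights, Hspa1a was at -0.46, Hspa1b at -0.23, Hspa8 at -0.14, Hspb1 at -0.01 and Dnajc5 at -0.08. With the length trend removed, Hspa8 was at -0.02 and Dnajc5 at -0.04, and with quantile normalization Dnajb2 was at 0.03. Without replicate 1 of both genotypes, Hspa1a was at -0.37, Hspa1b at -0.20, Hspa8 at -0.09, Hspb1 at -0.21, Hsp90ab1 at -0.02 and Dnajc5 at -0.08. Leaving out 1 library gave -0.40 to 0.35 for Hspa1a, -0.06 to 0.80 for Hspa1b, -0.09 to 0.07 for Hspa8, -0.16 to 0.15 for Hspb1, -0.30 to 0.04 for Dnajb1 and -0.10 to 0.11 for Dnajc5. Beyond what the construction of each setting shows, the cause was not tested.

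With the replicate number as a block, 0 chaperone genes passed the adjusted threshold and 4 were higher at an unadjusted p under 0.05. Over all 15061 genes, 790 were past the unadjusted limit in either direction. Deviations of same-numbered libraries correlated at -0.11, -0.055, 0.024 and 0.14, and those of differently numbered ones at -0.42 to 0.23. No sign of pairing by number was seen, but so few libraries cannot exclude it. Without counts, no interval for counting error is given.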
